A study of Mus musculus with 9 samples.

Results

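Chromatin accessibility was described at 9 genes of the NODAL signalling pathway, namely Nodal, the convertase genes Pcsk6 and Furin, the antagonist genes Lefty1 and Lefty2, the co-receptor gene Tdgf1, the receptor gene Acvr2b, and Smad3 and Skil, which act inside the cell. A region belonged to a gene if it lay in the gene's RefSeq span or within 50 kb of it and no other protein-coding gene was nearer. This gave 107 of the 157497 regions in which reads were counted. ATAC-seq, in which a transposase inserts sequencing adapters into open DNA, had been run on mouse embryonic stem cells in 3 groups of 3 libraries. By the sample titles, NanogKO:Esrrb:Nanog cells (code 44JN) carried a Nanog knockout with Esrrb and Nanog, NanogKO:Esrrb cells (code 44J) the knockout with Esrrb, and NanogKO cells (code 44C6) the knockout alone. Both factors belong to the transcription factor network of pluripotency. All cells were labelled as untreated, were grown with 10% serum and 1000 U/ml of the cytokine LIF, which sustains self-renewal, and were sorted as PECAM+ PDGFRA- cells. The labels name 1 cell line for NanogKO (N{delta}) and another for both other groups (N{delta}:cE:iN), so a comparison with NanogKO cannot tell the genotype apart from the line. How Esrrb and Nanog were supplied, and whether the replicates were separate cultures, is not given in the labels, so the spread behind the p-values is that of these libraries and may be technical.

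NODAL is a secreted ligand of the TGF-beta family. It is made as a precursor that proprotein convertases, among them FURIN and PCSK6 (also called PACE4), cleave to release the mature ligand. Mature NODAL binds activin receptors, including the type II receptor ACVR2B, together with the co-receptor TDGF1 (CRIPTO), and the receptors phosphorylate SMAD2 and SMAD3, which enter the nucleus with SMAD4. LEFTY1 and LEFTY2 are secreted antagonists whose genes are themselves targets of the pathway, and SKIL (SnoN) is a nuclear repressor of SMAD activity. In embryonic stem cells the pathway is known for its part in the exit from naive pluripotency and in the choice of mesoderm and endoderm.

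The RefSeq promoter sequences of Nodal, Tdgf1 and Pcsk6 are given first, because the accessibility of these promoters is described below and the 3 differ in base composition. Each runs 5′ to 3′ on the gene's own strand from 250 bases before to 50 bases after the annotated start (GRCm38.p6). The capitals mark a match to the SMAD-type motif.
Nodal, chr10:61417722-61418021, plus strand: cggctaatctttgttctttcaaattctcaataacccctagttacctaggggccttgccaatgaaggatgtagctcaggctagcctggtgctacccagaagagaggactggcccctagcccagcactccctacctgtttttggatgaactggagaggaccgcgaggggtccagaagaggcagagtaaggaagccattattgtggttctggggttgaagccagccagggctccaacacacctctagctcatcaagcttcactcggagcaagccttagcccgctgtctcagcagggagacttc
Tdgf1, chr9:110946109-110946408, minus strand: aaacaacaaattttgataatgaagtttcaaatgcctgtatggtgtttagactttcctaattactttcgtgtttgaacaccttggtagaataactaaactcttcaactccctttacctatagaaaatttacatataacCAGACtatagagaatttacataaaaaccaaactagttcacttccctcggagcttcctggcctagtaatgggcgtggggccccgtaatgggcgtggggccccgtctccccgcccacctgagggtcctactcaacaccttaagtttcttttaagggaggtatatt
Pcsk6, chr7:65861886-65862185, plus strand: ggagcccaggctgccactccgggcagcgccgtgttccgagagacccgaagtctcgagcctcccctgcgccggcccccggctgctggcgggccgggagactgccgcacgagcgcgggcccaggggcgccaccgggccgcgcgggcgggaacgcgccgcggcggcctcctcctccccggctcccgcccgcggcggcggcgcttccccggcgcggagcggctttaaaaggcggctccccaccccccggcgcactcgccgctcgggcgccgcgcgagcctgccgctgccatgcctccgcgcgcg
The Pcsk6 window was GC-rich, with 81.7% G or C and 52 CpG dinucleotides. The Nodal window had 54% G or C with 5 CpG, and the Tdgf1 window 41.7% with 7 CpG. A counted region covered all 300 bases of the Pcsk6 window, 220 of the Nodal window and 112 of the Tdgf1 window. RefSeq gave 7 such windows for 6 of the 9 genes, with none for Lefty1, Lefty2 and Skil. On either strand, the ESRRB-type motif AAGGTCA and the FOXH1-type motif AATCCAC matched in none of the 7 windows, against 4.72% and 2.49% of the 32851 promoter windows of this length in RefSeq. The SMAD-type motif CAGAC matched once in the Tdgf1 window, 113 bases before the start, and was not found in the Nodal and Pcsk6 windows. It occurs in 49.6% of the 32851 windows, and a match is not evidence of binding.

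Library totals ranged from 35545030 to 58520948 counts, and the counts of the member regions from 1 to 3333 per library, over a median region length of 355 bp. All 107 regions passed the filter on low counts. The regions counted were those in the authors' 3 peak lists, 1 list per group. Of the 107 regions, 49 had a peak in all 3 lists, 36 had no NanogKO peak and 16 had a NanogKO peak alone, so accessible sites outside these lists were not seen. In the principal components of all regions, NanogKO:Esrrb:Nanog replicate 3 stood apart on the second component, at 5.5 against 87.6 and 101.4 for replicates 1 and 2. The accessibility of promoters of 3 embryonic stem cell genes with a RefSeq window (Pou5f1, Sox2 and Zfp42, of 5 on the list) summed to 74.0 to 83.8 CPM in NanogKO:Esrrb:Nanog, 68.0 to 85.9 CPM in NanogKO:Esrrb and 52.1 to 58.3 CPM in NanogKO, where CPM is the count scaled to library size with TMM factors. Promoters of the fibroblast genes Col1a2 and Twist1 (of 4 on the list) summed to 6.81 to 8.51, 6.20 to 7.04 and 8.84 to 10.1 CPM in the same order of groups. The 2 genes did not move alike: Col1a2 had 3.80 to 4.75, 4.3 to 4.91 and 6.15 to 7.05 CPM, and Twist1 3.01 to 4.46, 1.54 to 2.17 and 2.68 to 3.10 CPM. No counted region overlapped the Pdgfra promoter window, the one window available among 5 primitive endoderm genes. These marker levels differed between the groups, and their part in the results below was not tested. In bulk libraries, fewer cells with an open region and less opening per cell cannot be told apart.

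Regions were tested with edgeR's quasi-likelihood test over all 157439 regions that passed the filter, and called where the p adjusted by Benjamini-Hochberg was under 0.05. In NanogKO:Esrrb:Nanog against NanogKO, 46 of the 107 regions rose and 22 fell. Over all regions tested, 24.9% rose and 24.4% fell in this comparison, 49.3% in all. In NanogKO:Esrrb against NanogKO, 39 member regions rose and 14 fell, where 20% of all regions rose and 17% fell (37% in all). Between NanogKO:Esrrb:Nanog and NanogKO:Esrrb, 15 member regions rose and 12 fell, against 12.6% and 12% of all regions (24.6% in all). The median log2 fold change over the members was 0.25, 0.20 and -0.01 in these 3 comparisons, while that over all regions was -0.01 in each. The 15 rises and 12 falls became 8 and 7 without NanogKO:Esrrb:Nanog replicate 1, 10 and 4 without NanogKO:Esrrb:Nanog replicate 2, 7 and 7 without NanogKO:Esrrb replicate 1, 8 and 5 without NanogKO:Esrrb replicate 3, and 6 and 16 with upper-quartile factors. The first pair of comparisons shares the NanogKO libraries.

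Pcsk6 held 30 of the 107 regions. Without it, 21 of the other 77 regions rose and 22 fell in NanogKO:Esrrb:Nanog against NanogKO, and 13 rose and 14 fell in NanogKO:Esrrb against NanogKO. Between NanogKO:Esrrb:Nanog and NanogKO:Esrrb, 10 rose and 10 fell. The last comparison depended on single libraries and on scaling. Over these 77 regions it had 4 rises and 6 falls without NanogKO:Esrrb:Nanog replicate 1, 8 and 3 without NanogKO:Esrrb:Nanog replicate 2, 5 and 7 without NanogKO:Esrrb replicate 1, and 6 and 4 without NanogKO:Esrrb replicate 3. With upper-quartile factors it had 4 rises and 14 falls. In NanogKO:Esrrb against NanogKO, the 77 regions had 7 rises and 9 falls without NanogKO:Esrrb replicate 2, and 9 falls without NanogKO replicate 3.

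**Figure D1:**
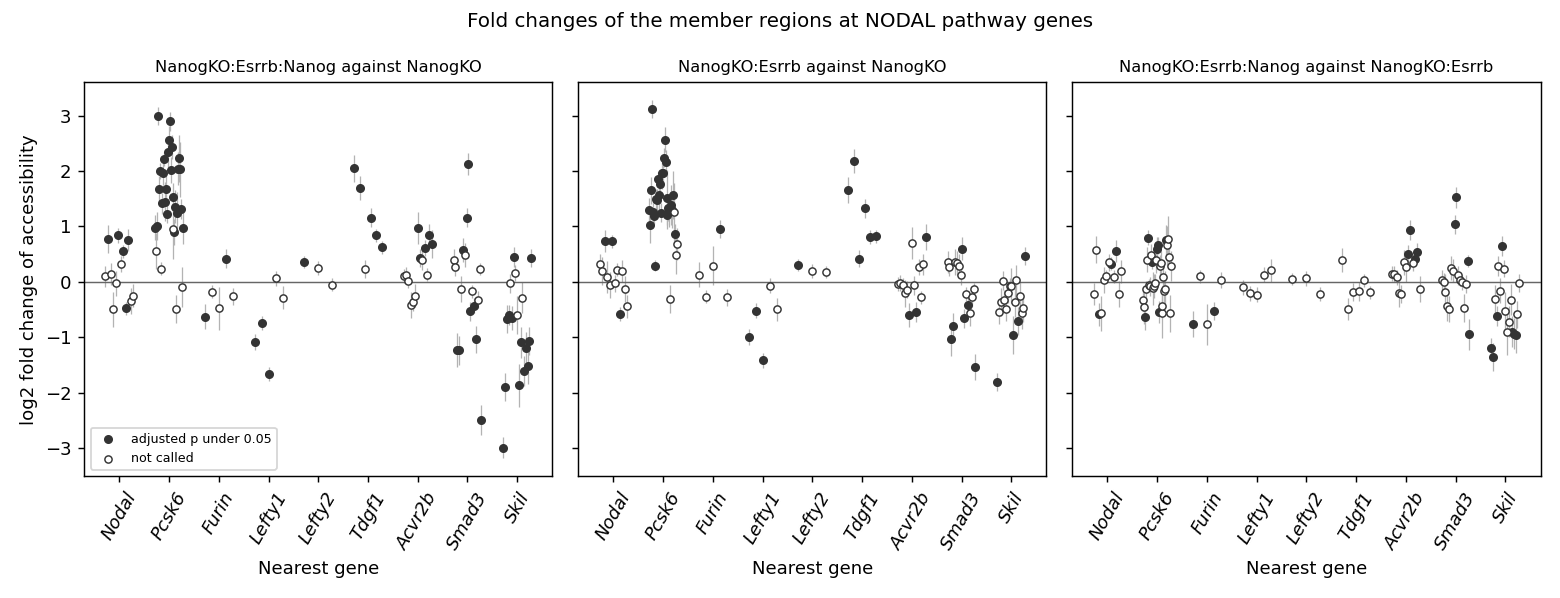
log2 fold change of each of the 107 regions, by nearest gene, in the 3 comparisons; each point is a region, filled where its adjusted p was under 0.05. Against NanogKO, most Pcsk6 points (median 1.49 with Esrrb and Nanog, 1.36 with Esrrb) and Tdgf1 points lie above 0, and the Lefty1 points called lie below it.

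Nodal (gene 18119, chr10:61417972-61425338, plus strand) encodes the ligand itself and had 12 regions, 4 in the gene and 8 near it. Its most accessible region lay 1326 bp upstream of the gene (chr10:61415576-61416646). It had 51.4, 41.4 and 42.3 CPM in NanogKO:Esrrb:Nanog, 44.7, 43.0 and 38.2 CPM in NanogKO:Esrrb, against 29.9, 22.0 and 23.8 CPM in NanogKO. Both groups with added factors lay above every NanogKO library and overlapped each other. The log2 fold change was 0.84 ± 0.13 (SE, as for every log2 fold change below) in NanogKO:Esrrb:Nanog against NanogKO, with an adjusted p of 3.5e-06, and 0.73 ± 0.12 in NanogKO:Esrrb against NanogKO, with an adjusted p of 3.7e-05. Between the groups with added factors it was 0.10 ± 0.12 and was not called (adjusted p = 0.57).

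The region over the Nodal promoter (chr10:61417802-61418040) had 8.67, 8.68 and 7.02 CPM in NanogKO:Esrrb:Nanog, 6.90, 6.06 and 6.11 CPM in NanogKO:Esrrb, against 7.58, 6.04 and 5.92 CPM in NanogKO. NanogKO:Esrrb:Nanog lay above NanogKO:Esrrb in all 3 libraries and overlapped NanogKO. NanogKO:Esrrb:Nanog had a log2 fold change of 0.35 ± 0.15 against NanogKO:Esrrb (adjusted p = 0.077, and 0.048 with the replicate block) and 0.32 ± 0.15 against NanogKO (adjusted p = 0.074, and 0.045 with the block). Without NanogKO:Esrrb:Nanog replicate 3 the adjusted p was 0.022 in each of these, and without NanogKO replicate 1 it was 0.032 in the comparison with NanogKO.

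A region inside Nodal (chr10:61423113-61423688, named after its values were seen) went the other way. It had 17.2, 17.6 and 18.6 CPM in NanogKO:Esrrb:Nanog, 16.7, 15.0 and 18.4 CPM in NanogKO:Esrrb, against 25.8, 22.5 and 26.5 CPM in NanogKO. Every NanogKO library was higher than every other library. It fell by 0.48 on the log2 scale in NanogKO:Esrrb:Nanog (adjusted p = 0.0011) and by 0.58 in NanogKO:Esrrb (adjusted p = 0.00027). It was the one Nodal region called lower in either comparison with NanogKO. Beside it, 4 were called higher with Esrrb and Nanog (33.3%, against 24.9% of all regions) and 2 with Esrrb (16.7%, against 20%). With Esrrb and Nanog, 2 were called lower without NanogKO:Esrrb:Nanog replicate 3 or NanogKO replicate 1, and with Esrrb 1 was called higher without NanogKO:Esrrb replicate 2.

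The Nodal region with the smallest p between the groups with added factors lay 11553 bp upstream (chr10:61405682-61406419). It had 2.82, 3.73 and 4.29 CPM in NanogKO:Esrrb:Nanog, 4.97, 7.10 and 4.21 CPM in NanogKO:Esrrb, against 2.71, 3.44 and 3.67 CPM in NanogKO. NanogKO:Esrrb exceeded every NanogKO library and overlapped NanogKO:Esrrb:Nanog. The region rose by 0.73 ± 0.20 (log2) in NanogKO:Esrrb against NanogKO (adjusted p = 0.0044), a call lost without NanogKO:Esrrb replicate 2 (0.071). Between the groups with added factors the log2 fold change of NanogKO:Esrrb:Nanog was -0.59 ± 0.20 (adjusted p = 0.03), and the adjusted p was 0.16, 0.063 and 0.23 without NanogKO:Esrrb:Nanog replicates 1 and 2 and NanogKO:Esrrb replicate 2. Between these groups 2 Nodal regions rose (16.7%) and 1 fell (8.33%), beside 12.6% and 12% of all regions. With 1 library left out 0 to 3 Nodal regions rose and 0 to 1 fell. The rises became 0 without NanogKO:Esrrb:Nanog replicate 1 or NanogKO:Esrrb replicate 1 or 3, and with upper-quartile factors.

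Pcsk6 (gene 18553, chr7:65862136-66050386, plus strand) encodes a convertase that processes the NODAL precursor. Of its 30 regions, 24 lay in the gene and 6 upstream. With Esrrb and Nanog, 25 of them (83.3%, beside 24.9% of all regions) rose and 0 fell against NanogKO, 22 by more than 2-fold. The median log2 fold change was 1.49. In NanogKO:Esrrb against NanogKO, 26 (86.7%, beside 20%) rose and 0 fell, 24 by more than 2-fold, with a median of 1.36. With 1 library left out, the rises numbered 25 to 26 and 24 to 25 in these comparisons, and the falls 0 to 1 and 0. The summed accessibility of the 30 regions was 188 ± 6.0 CPM in NanogKO:Esrrb:Nanog, 164 ± 14 CPM in NanogKO:Esrrb and 70.0 ± 2.2 CPM in NanogKO (SD, n = 3 each). The authors' NanogKO list held no peak at 23 of the 30 regions, so most of these regions were counted because of a peak in a group with added factors. Over the 5 Pcsk6 regions with a peak in every list, the median log2 fold change was 1.31 in NanogKO:Esrrb:Nanog and 1.19 in NanogKO:Esrrb against NanogKO.

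The Pcsk6 region with the smallest p lay 16180 bp upstream (chr7:65845047-65845956). It had 15.5, 13.8 and 15.1 CPM in NanogKO:Esrrb:Nanog, 18.3, 17.1 and 13.2 CPM in NanogKO:Esrrb, against 2.05, 1.52 and 2.03 CPM in NanogKO. Every library with added factors was above 13 CPM and every NanogKO library near 2 CPM. This region had no peak in the NanogKO list, so it was counted because of a peak in a group with added factors. The rise was 7.96-fold in NanogKO:Esrrb:Nanog (log2 fold change 2.99 ± 0.16, adjusted p = 9e-14) and 8.72-fold in NanogKO:Esrrb (3.12 ± 0.16, adjusted p = 3.8e-13). Between these groups it was not called, with a log2 fold change of -0.13 and an adjusted p of 0.5.

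A neighbouring region 12440 bp upstream (chr7:65849116-65849696) had 24.4, 26.7 and 20.6 CPM in NanogKO:Esrrb:Nanog, 14.6, 14.7 and 11.7 CPM in NanogKO:Esrrb, against 6.46, 5.09 and 6.41 CPM in NanogKO. The 3 groups did not overlap. It rose in all 3 comparisons, by 2.00 ± 0.14 in NanogKO:Esrrb:Nanog against NanogKO (adjusted p = 7.1e-12), 1.19 ± 0.14 in NanogKO:Esrrb against NanogKO (adjusted p = 1.3e-07) and 0.80 ± 0.13 in NanogKO:Esrrb:Nanog against NanogKO:Esrrb (adjusted p = 0.00011). No call at this region changed with 1 library left out.

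The most accessible Pcsk6 region by NanogKO:Esrrb:Nanog level lay inside the gene (chr7:65873221-65874043, named after its values were seen). It had 48.9, 48.6 and 46.8 CPM in NanogKO:Esrrb:Nanog, 37.4, 43.9 and 31.0 CPM in NanogKO:Esrrb, against 9.88, 9.75 and 11.4 CPM in NanogKO. Again the groups did not overlap. It rose by 2.22 ± 0.13 on the log2 scale in NanogKO:Esrrb:Nanog (adjusted p = 3.1e-13) and by 1.86 ± 0.13 in NanogKO:Esrrb (adjusted p = 2.1e-11). Between the groups with added factors the log2 fold change was 0.36 ± 0.12 (adjusted p = 0.029), and this call was lost without NanogKO:Esrrb:Nanog replicate 1 (0.061) or 2 (0.08), or NanogKO:Esrrb replicate 1 (0.077) or 3 (0.2).

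The region over the Pcsk6 promoter (chr7:65861451-65863371) had 37.5, 35.6 and 35.2 CPM in NanogKO:Esrrb:Nanog, 38.0, 36.3 and 38.0 CPM in NanogKO:Esrrb, against 31.4, 31.2 and 29.2 CPM in NanogKO. The groups with added factors lay above NanogKO without overlap, but by far less than the regions described above. The log2 fold change was 0.24 ± 0.11 in NanogKO:Esrrb:Nanog (adjusted p = 0.06, and 0.024 with the replicate block, 0.025 with DESeq2 and 0.044 without NanogKO:Esrrb:Nanog replicate 3) and 0.29 ± 0.10 in NanogKO:Esrrb (adjusted p = 0.03). The call in NanogKO:Esrrb was lost without NanogKO:Esrrb replicate 1 (0.089) or 3 (0.085), or NanogKO replicate 1 (0.052), 2 (0.074) or 3 (0.11). Between NanogKO:Esrrb:Nanog and NanogKO:Esrrb, 5 Pcsk6 regions rose (16.7%) and 2 fell (6.67%), beside 12.6% and 12% of all regions. The median over the 30 regions was 0.03 (log2). With 1 library left out, 2 to 5 rose and 0 to 2 fell. The rises numbered 2 without NanogKO:Esrrb:Nanog replicate 2, NanogKO:Esrrb replicate 1 or NanogKO:Esrrb replicate 3.

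**Figure D2:**
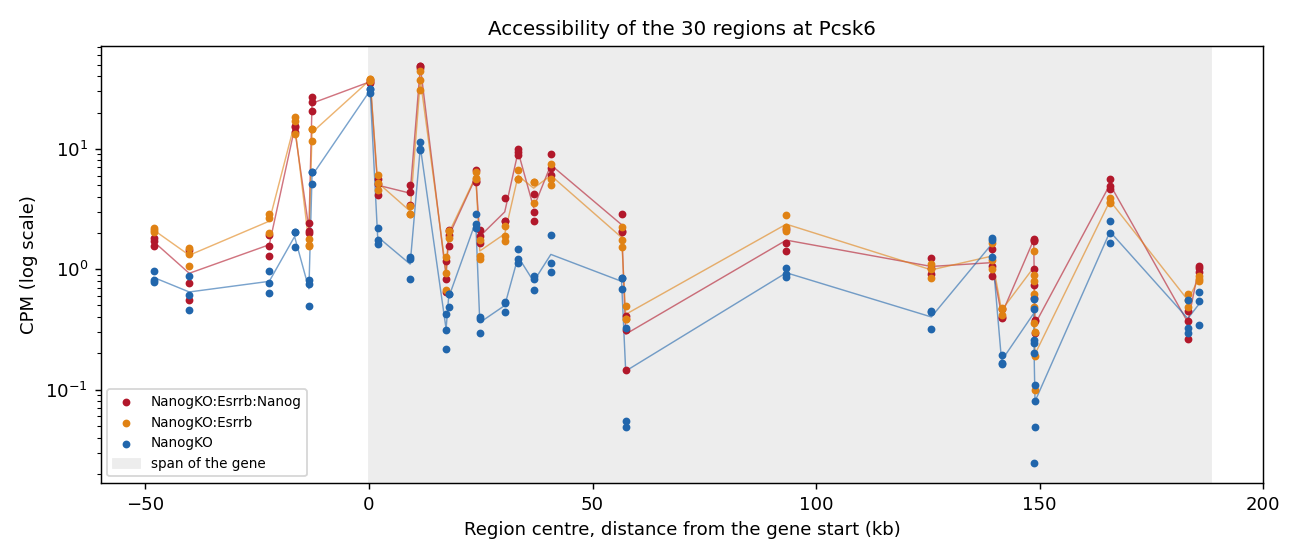
Accessibility of the 30 Pcsk6 regions in CPM (log scale) against the distance of the region's centre from the gene start in kb; each point is a library, the lines join the group means and the shaded span is the gene. Between the upstream region near 16 kb and the first part of the gene, the libraries of both groups with added factors lie above those of NanogKO, while at the promoter, close to 0 kb, they lie between 35.2 and 38.0 CPM against 29.2 to 31.4 CPM.

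Furin (gene 18550, chr7:80389194-80405441, minus strand) encodes the other convertase of the set and had 5 regions. RefSeq gave Furin 2 promoter windows. No counted region overlapped the one at the upstream end of the gene span (chr7:80405387-80405686). The region over the other window (chr7:80401821-80403327) had 29.3, 25.9 and 21.0 CPM in NanogKO:Esrrb:Nanog, 25.5, 23.1 and 22.7 CPM in NanogKO:Esrrb, against 30.4, 30.3 and 25.4 CPM in NanogKO. The NanogKO:Esrrb libraries reached at most 25.5 CPM, just above the lowest NanogKO library, and NanogKO:Esrrb:Nanog overlapped both. The difference from NanogKO was -0.18 (log2) in NanogKO:Esrrb:Nanog (adjusted p = 0.24) and -0.27 ± 0.12 in NanogKO:Esrrb (adjusted p = 0.082, and 0.025 with the replicate block).

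A region 17267 bp upstream of Furin (chr7:80422708-80423460) had 5.08, 4.25 and 4.37 CPM in NanogKO:Esrrb:Nanog, 7.65, 5.59 and 6.61 CPM in NanogKO:Esrrb, against 3.61, 3.75 and 2.88 CPM in NanogKO. The groups did not overlap, and NanogKO:Esrrb was the highest. In NanogKO:Esrrb against NanogKO it rose by 0.95 ± 0.16 (adjusted p = 4.4e-05). The rise in NanogKO:Esrrb:Nanog was 0.42 ± 0.17 against NanogKO (adjusted p = 0.039, lost at 0.14, 0.055 and 0.17 without NanogKO:Esrrb:Nanog replicate 1, NanogKO replicate 1 and NanogKO replicate 3, and at 0.12 with upper-quartile factors). Against NanogKO:Esrrb it fell by 0.53 ± 0.16 (adjusted p = 0.019, lost at 0.064, 0.12 and 0.052 without NanogKO:Esrrb:Nanog replicate 2, NanogKO:Esrrb replicate 1 and NanogKO:Esrrb replicate 3).

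A weakly accessible region within Furin (chr7:80396496-80396816) had 1.18, 1.26 and 1.64 CPM in NanogKO:Esrrb:Nanog, 2.25, 2.34 and 2.37 CPM in NanogKO:Esrrb, against 2.73, 2.13 and 1.54 CPM in NanogKO. NanogKO:Esrrb:Nanog lay below every NanogKO:Esrrb library and overlapped NanogKO by 1 library. It fell by 0.76 ± 0.23 against NanogKO:Esrrb (adjusted p = 0.017) and by 0.63 ± 0.23 against NanogKO (adjusted p = 0.025). The first call was lost without NanogKO:Esrrb:Nanog replicate 1 (0.073) or 2 (0.055) or NanogKO:Esrrb replicate 3 (0.051). The second was lost without NanogKO:Esrrb:Nanog replicate 1 (0.094) or 2 (0.067) or NanogKO replicate 1 (0.17) or 2 (0.057). Over all 5 Furin regions the summed accessibility was 36.7 ± 4.5 CPM in NanogKO:Esrrb:Nanog, 38.2 ± 2.7 CPM in NanogKO:Esrrb and 40.8 ± 3.9 CPM in NanogKO (SD, n = 3 each), ranges that overlap between the groups.

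Lefty1 (gene 13590, chr1:180935022-180938401) encodes an antagonist of NODAL and was the gene of the set whose called regions all fell against NanogKO. Of its 5 regions, 3 fell and 0 rose in each comparison with NanogKO, with median log2 fold changes of -0.74 with Esrrb and Nanog and -0.52 with Esrrb. The region at the low-coordinate end of the gene (chr1:180934380-180935137) had 5.37, 5.90 and 6.50 CPM in NanogKO:Esrrb:Nanog, 7.35, 6.08 and 7.52 CPM in NanogKO:Esrrb, against 18.3, 19.1 and 18.8 CPM in NanogKO. Every NanogKO library was above 18 CPM and every other library below 8 CPM. The region was 3.15-fold lower in NanogKO:Esrrb:Nanog (log2 fold change -1.66 ± 0.13, adjusted p = 7.5e-11) and 2.68-fold lower in NanogKO:Esrrb (-1.42 ± 0.13, adjusted p = 2.5e-09).

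A Lefty1 region 9559 bp from the gene (chr1:180924548-180925463) had 14.6, 13.6 and 15.6 CPM in NanogKO:Esrrb:Nanog, 19.3, 11.4 and 16.3 CPM in NanogKO:Esrrb, against 30.9, 30.9 and 31.7 CPM in NanogKO. It was again higher in NanogKO than in every other library. It fell by 1.09 ± 0.14 on the log2 scale in NanogKO:Esrrb:Nanog (adjusted p = 2.6e-07) and by 1.00 ± 0.14 in NanogKO:Esrrb (adjusted p = 2e-06). Between NanogKO:Esrrb:Nanog and NanogKO:Esrrb, 0 of the 5 Lefty1 regions were called, beside 24.6% of all regions. In this comparison the 2 regions described had adjusted p-values of 0.2 and 0.64. The calls of these 2 regions did not change with 1 library left out. The third region called lay 925 bp from the gene (chr1:180933255-180934097), with log2 fold changes of -0.74 (adjusted p = 5.4e-05) with Esrrb and Nanog and -0.52 (adjusted p = 0.0027) with Esrrb. The other 2 regions, both inside the gene, were not called and had log2 fold changes between -0.50 and 0.06 against NanogKO. The one at -0.50 (chr1:180937948-180938024, in NanogKO:Esrrb, adjusted p = 0.064) passed with the replicate block (0.046) and with the libraries of these groups alone (0.047), which made 4 falls of 5 in that comparison, as did leaving out NanogKO:Esrrb replicate 1.

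Lefty2 (gene 320202, chr1:180893108-180899107), the neighbouring antagonist gene, had 3 regions, each with a peak in all 3 lists. Its most accessible region, 3624 bp from the gene (chr1:180888190-180889484), had 62.1, 53.0 and 57.6 CPM in NanogKO:Esrrb:Nanog, 61.7, 55.3 and 49.9 CPM in NanogKO:Esrrb, against 49.2, 42.3 and 43.2 CPM in NanogKO. Both groups with added factors lay above NanogKO, although the lowest NanogKO:Esrrb library exceeded the highest NanogKO library by less than 1 CPM. The rise was 0.36 ± 0.11 in NanogKO:Esrrb:Nanog (adjusted p = 0.01, lost at 0.063 without NanogKO replicate 2 and at 0.074 with upper-quartile factors). In NanogKO:Esrrb it was 0.31 ± 0.11 (adjusted p = 0.033), a call lost without NanogKO:Esrrb replicate 1 (0.19) or 2 (0.061), or NanogKO replicate 2 (0.14) or 3 (0.11).

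The Lefty2 region inside the gene (chr1:180893994-180894948) had 15.1, 15.8 and 17.3 CPM in NanogKO:Esrrb:Nanog, 18.9, 18.4 and 18.9 CPM in NanogKO:Esrrb, against 16.9, 15.0 and 18.2 CPM in NanogKO. NanogKO:Esrrb was the highest of the groups. NanogKO:Esrrb:Nanog was at -0.22 ± 0.12 (log2) against NanogKO:Esrrb and was not called (adjusted p = 0.16, and 0.037 with upper-quartile factors). Lefty1 and Lefty2 are neighbouring genes of similar sequence, and the sources used here do not say how reads that match both were placed, so values inside either gene are uncertain.

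Tdgf1 (gene 21667, chr9:110939608-110946158, minus strand) encodes the co-receptor CRIPTO. Of its 6 regions, 5 rose (83.3%) and 0 fell in NanogKO:Esrrb:Nanog against NanogKO, and 6 rose and 0 fell in NanogKO:Esrrb. Of all regions, 24.9% and 20% rose. The 6 rises became 5 without NanogKO:Esrrb replicate 1, 2 or 3 or NanogKO replicate 1 or 3. The rise lost was that of chr9:110944264-110944544 (log2 fold change 0.42, adjusted p = 0.038). The median log2 fold changes of Tdgf1 were 1.00 and 1.07. The region over its promoter (chr9:110946013-110946220), which holds 112 bases of the window printed above, had 9.72, 7.92 and 7.33 CPM in NanogKO:Esrrb:Nanog, 11.5, 8.21 and 8.45 CPM in NanogKO:Esrrb, against 4.34, 2.79 and 4.10 CPM in NanogKO. Every NanogKO library lay below every other library. The rise was 1.16 ± 0.17 in NanogKO:Esrrb:Nanog (adjusted p = 3.7e-06) and 1.33 ± 0.17 in NanogKO:Esrrb (adjusted p = 8.5e-07).

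The promoter region and 2 regions beyond the downstream end of Tdgf1, the 3 that rose by more than 2-fold, had no peak in the NanogKO list, so they were counted because of a peak in a group with added factors. Over the other 3 regions, which had a peak in every list, the median log2 fold change was 0.62 in NanogKO:Esrrb:Nanog and 0.81 in NanogKO:Esrrb against NanogKO, and 0 rose by more than 2-fold. The region 182 bp from the gene (chr9:110938633-110939426) had 6.16, 6.16 and 9.46 CPM in NanogKO:Esrrb:Nanog, 9.84, 10.3 and 10.7 CPM in NanogKO:Esrrb, against 2.93, 1.16 and 2.80 CPM in NanogKO. NanogKO:Esrrb was the highest and NanogKO the lowest group, without overlap. The rise (log2) was 1.69 ± 0.22 in NanogKO:Esrrb:Nanog (adjusted p = 5.6e-07) and 2.18 ± 0.22, or 4.53-fold, in NanogKO:Esrrb (adjusted p = 1.8e-08). In NanogKO:Esrrb:Nanog against NanogKO:Esrrb it was -0.49 ± 0.20 and was not called (adjusted p = 0.076), but passed with the replicate block (0.026), with upper-quartile factors (0.025), with the libraries of these groups alone (0.027) and without NanogKO:Esrrb:Nanog replicate 3 (0.0081).

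The region 1435 bp from the downstream end (chr9:110937838-110938173) had 4.96, 4.34 and 6.17 CPM in NanogKO:Esrrb:Nanog, 3.70, 3.67 and 4.52 CPM in NanogKO:Esrrb, against 0.829, 0.919 and 1.99 CPM in NanogKO. NanogKO stayed below every other library. The rise was 2.05 ± 0.24 (adjusted p = 7.1e-08) in NanogKO:Esrrb:Nanog and 1.66 ± 0.24 (adjusted p = 4e-06) in NanogKO:Esrrb. On the upstream side, the region 1357 bp from the gene (chr9:110947515-110948292) had 31.7, 26.7 and 30.9 CPM in NanogKO:Esrrb:Nanog, 35.9, 36.2 and 30.2 CPM in NanogKO:Esrrb, against 22.3, 18.0 and 17.7 CPM in NanogKO. It rose by 0.62 ± 0.12 (adjusted p = 0.00011) and 0.82 ± 0.12 (adjusted p = 5.6e-06) in NanogKO:Esrrb:Nanog and NanogKO:Esrrb against NanogKO. Between the groups with added factors 0 of the 6 regions were called, beside 24.6% of all regions. Processed copies of Tdgf1 are known in the mouse genome, so values in its exons are uncertain where reads match several places.

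Acvr2b (gene 11481, chr9:119401583-119442148, plus strand) encodes a type II activin receptor, and its 13 regions all lay in the gene. The promoter region (chr9:119401476-119402140) had 28.2, 27.8 and 21.3 CPM in NanogKO:Esrrb:Nanog, 26.3, 21.5 and 21.6 CPM in NanogKO:Esrrb, against 27.2, 23.1 and 21.3 CPM in NanogKO. The groups overlapped and no comparison was called, with adjusted p-values of 0.5, 0.82 and 0.4. Further into the gene, 5 regions (38.5% of the 13, beside 24.9% of all regions) rose in NanogKO:Esrrb:Nanog against NanogKO and 0 fell. In NanogKO:Esrrb against NanogKO 1 rose (7.69%, beside 20%) and 2 fell (15.4%, beside 17%). With 1 library left out, the last counts were 0 to 2 rises and 0 to 2 falls, with 0 falls without NanogKO:Esrrb replicate 2 or NanogKO replicate 2 or 3 and 0 rises without NanogKO:Esrrb replicate 2 or NanogKO replicate 1. Against NanogKO:Esrrb, NanogKO:Esrrb:Nanog had 4 rises (30.8%, beside 12.6% of all regions) and 0 falls. The 5 rises became 3 without NanogKO:Esrrb:Nanog replicate 1 or 2 or NanogKO replicate 1, and with upper-quartile factors, and the 4 rises became 2 without NanogKO:Esrrb:Nanog replicate 1 and 1 without NanogKO:Esrrb replicate 1 or with upper-quartile factors.

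The Acvr2b region with the smallest p between the groups with added factors (chr9:119425414-119425752) had 4.71, 5.25 and 3.68 CPM in NanogKO:Esrrb:Nanog, 2.44, 2.08 and 2.57 CPM in NanogKO:Esrrb, against 2.98, 3.55 and 3.83 CPM in NanogKO. NanogKO:Esrrb was the lowest group and overlapped neither other group. The region was higher in NanogKO:Esrrb:Nanog than in NanogKO:Esrrb by 0.94 ± 0.18 (adjusted p = 0.00069), a call kept with any library left out. It was lower in NanogKO:Esrrb than in NanogKO, at -0.55 ± 0.18 (adjusted p = 0.02, lost at 0.094, 0.061 and 0.09 without NanogKO:Esrrb replicate 2, NanogKO replicate 2 and NanogKO replicate 3). Against NanogKO, NanogKO:Esrrb:Nanog was at 0.39 ± 0.18 and was not called (adjusted p = 0.077, and 0.02 without NanogKO:Esrrb:Nanog replicate 3).

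A second Acvr2b region (chr9:119434020-119434404) had 3.71, 3.40 and 3.96 CPM in NanogKO:Esrrb:Nanog, 2.21, 2.91 and 2.56 CPM in NanogKO:Esrrb, against 1.85, 1.95 and 2.33 CPM in NanogKO. NanogKO:Esrrb:Nanog lay above both other groups, which overlapped each other. The rise against NanogKO was 0.85 ± 0.19 (adjusted p = 0.00047). Against NanogKO:Esrrb it was 0.53 ± 0.18 (adjusted p = 0.036), lost without NanogKO:Esrrb:Nanog replicate 1 (0.078) or 3 (0.069), without NanogKO:Esrrb replicate 1 (0.15) or 3 (0.091), and with upper-quartile factors (0.094).

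The third named region of the gene body (chr9:119438982-119439460) had 2.24, 2.23 and 1.59 CPM in NanogKO:Esrrb:Nanog, 1.61, 2.60 and 2.37 CPM in NanogKO:Esrrb, against 0.927, 1.23 and 1.58 CPM in NanogKO. The lowest library of each group with added factors was just above the highest NanogKO library. It rose by 0.68 ± 0.25 in NanogKO:Esrrb:Nanog (adjusted p = 0.024) and by 0.81 ± 0.24 in NanogKO:Esrrb (adjusted p = 0.0095). The first call was lost without NanogKO:Esrrb:Nanog replicate 1 (0.085) or 2 (0.074), without NanogKO replicate 1 (0.12) or 2 (0.064), and with upper-quartile factors (0.056). The second was lost without NanogKO:Esrrb replicate 2 (0.062) or NanogKO replicate 1 (0.066).

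Smad3 (gene 17127, chr9:63646766-63757994, minus strand) encodes a receptor-activated SMAD, and its 16 regions moved in both directions. In NanogKO:Esrrb:Nanog against NanogKO, 3 rose (18.8%) and 6 fell (37.5%), beside 24.9% and 24.4% of all regions. In NanogKO:Esrrb against NanogKO 1 rose (6.25%) and 5 fell (31.2%), beside 20% and 17%. Against NanogKO:Esrrb, NanogKO:Esrrb:Nanog had 3 rises (18.8%) and 1 fall (6.25%), beside 12.6% and 12%. Of the 16 regions, 3 had no NanogKO peak and 3 had a NanogKO peak alone. Over the 8 with a peak in every list, 1 rose (12.5%) and 2 fell (25.0%) in NanogKO:Esrrb:Nanog against NanogKO. Their log2 fold changes ran from -0.53 to 1.16. In NanogKO:Esrrb against NanogKO 0 of these 8 rose and 2 fell. Of all regions with a peak in every list, 24.0% rose and 19.7% fell in the first comparison, and 16.1% and 15.0% in the second. The promoter region (chr9:63757353-63758710) had 24.5, 26.2 and 21.0 CPM in NanogKO:Esrrb:Nanog, 25.8, 21.2 and 22.5 CPM in NanogKO:Esrrb, against 29.3, 26.8 and 24.8 CPM in NanogKO. The groups overlapped, and adjusted p-values were 0.23, 0.15 and 0.82.

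A region inside Smad3 (chr9:63741822-63742203) had 5.62, 5.37 and 4.96 CPM in NanogKO:Esrrb:Nanog, 2.01, 2.08 and 1.43 CPM in NanogKO:Esrrb, against 1.00, 1.38 and 1.24 CPM in NanogKO. NanogKO:Esrrb:Nanog stood well above both other groups. This region had no peak in the NanogKO list, so it was counted because of a peak in a group with added factors. The rise was 2.13 ± 0.20 against NanogKO (adjusted p = 2e-09) and 1.53 ± 0.19 against NanogKO:Esrrb (adjusted p = 4.3e-06). In NanogKO:Esrrb against NanogKO it was 0.60 ± 0.21 (adjusted p = 0.026), lost without NanogKO:Esrrb replicate 1 (0.095) or 2 (0.11) or NanogKO replicate 1 (0.12) or 3 (0.053).

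A second region inside the gene (chr9:63735418-63736031, named after its values were seen) had 6.47, 5.40 and 6.73 CPM in NanogKO:Esrrb:Nanog, 3.40, 2.65 and 3.06 CPM in NanogKO:Esrrb, against 2.41, 2.59 and 3.32 CPM in NanogKO. NanogKO:Esrrb and NanogKO overlapped, with NanogKO:Esrrb:Nanog above both. The rise was 1.16 ± 0.17 against NanogKO (adjusted p = 3.7e-06) and 1.04 ± 0.17 against NanogKO:Esrrb (adjusted p = 0.00013), while NanogKO:Esrrb against NanogKO was not called (0.12, adjusted p = 0.62).

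The Smad3 region of the largest fall lay 46914 bp upstream (chr9:63804908-63805125), close to the 50 kb limit. It had a peak in the NanogKO list alone, so it was counted through the group where it was highest. It had 0.56, 1.09 and 0.519 CPM in NanogKO:Esrrb:Nanog, 0.914, 1.32 and 1.76 CPM in NanogKO:Esrrb, against 3.29, 4.17 and 4.20 CPM in NanogKO. NanogKO lay above every other library. The region was 5.61-fold lower in NanogKO:Esrrb:Nanog (log2 fold change -2.49 ± 0.27, adjusted p = 2e-08), and the log2 fold change in NanogKO:Esrrb was -1.54 ± 0.24 (adjusted p = 1.5e-05). Against NanogKO:Esrrb, NanogKO:Esrrb:Nanog was at -0.95 ± 0.28 (adjusted p = 0.016, lost at 0.078, 0.062 and 0.12 without NanogKO:Esrrb:Nanog replicate 1, NanogKO:Esrrb:Nanog replicate 3 and NanogKO:Esrrb replicate 3).

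The most accessible Smad3 region, 45155 bp upstream (chr9:63803149-63803947), had 40.1, 32.7 and 34.0 CPM in NanogKO:Esrrb:Nanog, 28.9, 26.8 and 27.1 CPM in NanogKO:Esrrb, against 32.0, 28.5 and 30.4 CPM in NanogKO. NanogKO:Esrrb:Nanog was the highest group, and the other groups overlapped. The log2 fold change was 0.37 ± 0.11 against NanogKO:Esrrb (adjusted p = 0.018, lost at 0.091, 0.058 and 0.067 without NanogKO:Esrrb:Nanog replicate 1, NanogKO:Esrrb replicate 2 and NanogKO:Esrrb replicate 3, and at 0.1 with upper-quartile factors). Against NanogKO it was 0.23 ± 0.11 (adjusted p = 0.085, and 0.034 with the replicate block and 0.048 without NanogKO:Esrrb:Nanog replicate 3).

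Skil (gene 20482, chr3:31095058-31122923) encodes SnoN, a repressor of SMAD-driven transcription that is itself induced by the pathway. Of its 17 regions, 2 rose (11.8%) and 11 fell (64.7%) in NanogKO:Esrrb:Nanog against NanogKO, beside 24.9% and 24.4% of all regions. Of the falls, 8 were of more than 2-fold, and the median log2 fold change was -0.67. In NanogKO:Esrrb against NanogKO 1 rose (5.88%) and 3 fell (17.6%), beside 20% and 17%, with a median of -0.36. Relative to NanogKO:Esrrb, NanogKO:Esrrb:Nanog had 1 rise (5.88%) and 6 falls (35.3%), beside 12.6% and 12%, with a median of -0.59. The 11 falls became 8 to 10 with 1 library left out. The 6 falls became 2 without NanogKO:Esrrb:Nanog replicate 2, 3 without NanogKO:Esrrb replicate 3 and 4 without NanogKO:Esrrb replicate 1. The 3 falls became 1 without NanogKO:Esrrb replicate 2 or NanogKO replicate 1 or 3, and 5 with the replicate block. The 2 rises became 0 without NanogKO:Esrrb:Nanog replicate 1 or 2 or NanogKO replicate 2, and with upper-quartile factors. A NanogKO peak alone led to the counting of 8 of the 17 regions. The 4 regions with a peak in every list did not share the direction of the whole set. In NanogKO:Esrrb:Nanog, 2 of them rose and 1 fell against NanogKO (median 0.30, log2), and 1 rose and 1 fell against NanogKO:Esrrb (median 0.11). Of all regions with a peak in every list, 24.0% rose and 19.7% fell against NanogKO, and 14.9% and 8.61% against NanogKO:Esrrb.

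The largest fall at Skil lay 16471 bp from its low-coordinate end (chr3:31077711-31078587). This region had 1.16, 1.47 and 1.80 CPM in NanogKO:Esrrb:Nanog, 3.00, 3.10 and 4.12 CPM in NanogKO:Esrrb, against 11.5, 13.7 and 10.6 CPM in NanogKO. The groups did not overlap and stood in this order from low to high. The region had a peak in the NanogKO and NanogKO:Esrrb lists alone, so it was counted through the groups where it was higher. It was 8.02-fold lower in NanogKO:Esrrb:Nanog than in NanogKO (log2 fold change -3.0 ± 0.19, adjusted p = 1e-12) and 3.5-fold lower in NanogKO:Esrrb than in NanogKO (-1.81 ± 0.17, adjusted p = 4.4e-09). It was also 2.29-fold lower in NanogKO:Esrrb:Nanog than in NanogKO:Esrrb (-1.20 ± 0.19, adjusted p = 7.5e-05), and no call changed with 1 library left out.

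A second Skil region, 7026 bp from the gene (chr3:31087815-31088032, named after its values were seen), had 0.498, 0.968 and 0.744 CPM in NanogKO:Esrrb:Nanog, 1.59, 1.79 and 2.19 CPM in NanogKO:Esrrb, against 2.83, 2.81 and 2.47 CPM in NanogKO. The order of the groups was the same, again without overlap. This region had a peak in the NanogKO list alone, so it was counted through the group where it was highest. NanogKO:Esrrb:Nanog was at -1.36 (log2) against NanogKO:Esrrb (adjusted p = 0.00034) and at -1.90 against NanogKO (adjusted p = 3.6e-07). NanogKO:Esrrb against NanogKO was at -0.54 (adjusted p = 0.055, and 0.04 with the replicate block, 0.023 with the libraries of these groups alone and 0.043 without NanogKO:Esrrb replicate 3).

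At the low-coordinate end of Skil itself, the most accessible region (chr3:31094556-31095093) had 22.7, 23.1 and 11.4 CPM in NanogKO:Esrrb:Nanog, 13.6, 10.1 and 12.7 CPM in NanogKO:Esrrb, against 16.2, 12.7 and 13.1 CPM in NanogKO. NanogKO:Esrrb:Nanog replicates 1 and 2 were higher than every other library, whereas replicate 3 lay among them. The log2 fold change was 0.44 ± 0.18 against NanogKO (adjusted p = 0.042, lost at 0.23, 0.25, 0.15 and 0.12 without NanogKO:Esrrb:Nanog replicates 1 and 2 and NanogKO replicates 2 and 3, at 0.12 with upper-quartile factors and at 0.2 with DESeq2). It was 0.65 ± 0.18 against NanogKO:Esrrb (adjusted p = 0.01, lost at 0.076, 0.086 and 0.056 without NanogKO:Esrrb:Nanog replicates 1 and 2 and NanogKO:Esrrb replicate 2, and at 0.083 with DESeq2).

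**Figure D3:**
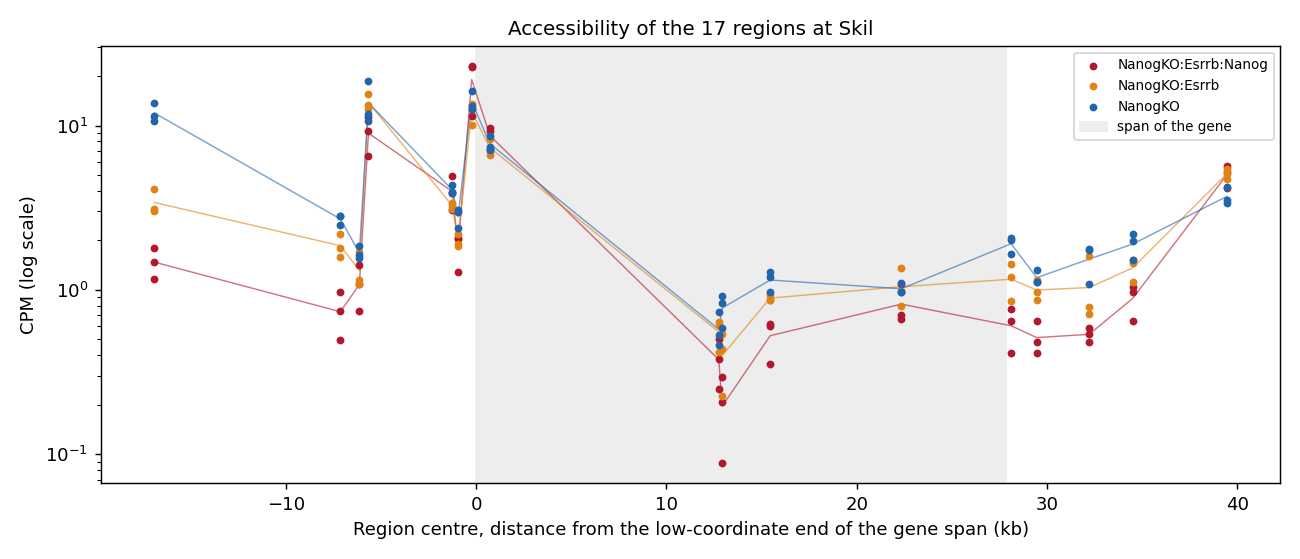
Accessibility of the 17 Skil regions in CPM (log scale) against the distance of the region's centre from the low-coordinate end of the gene span in kb; each point is a library, the lines join the group means and the shaded span is the gene. The region 16471 bp away has 1.16 to 1.80 CPM in NanogKO:Esrrb:Nanog, 3.00 to 4.12 CPM in NanogKO:Esrrb and 10.6 to 13.7 CPM in NanogKO.

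**Figure D4:**
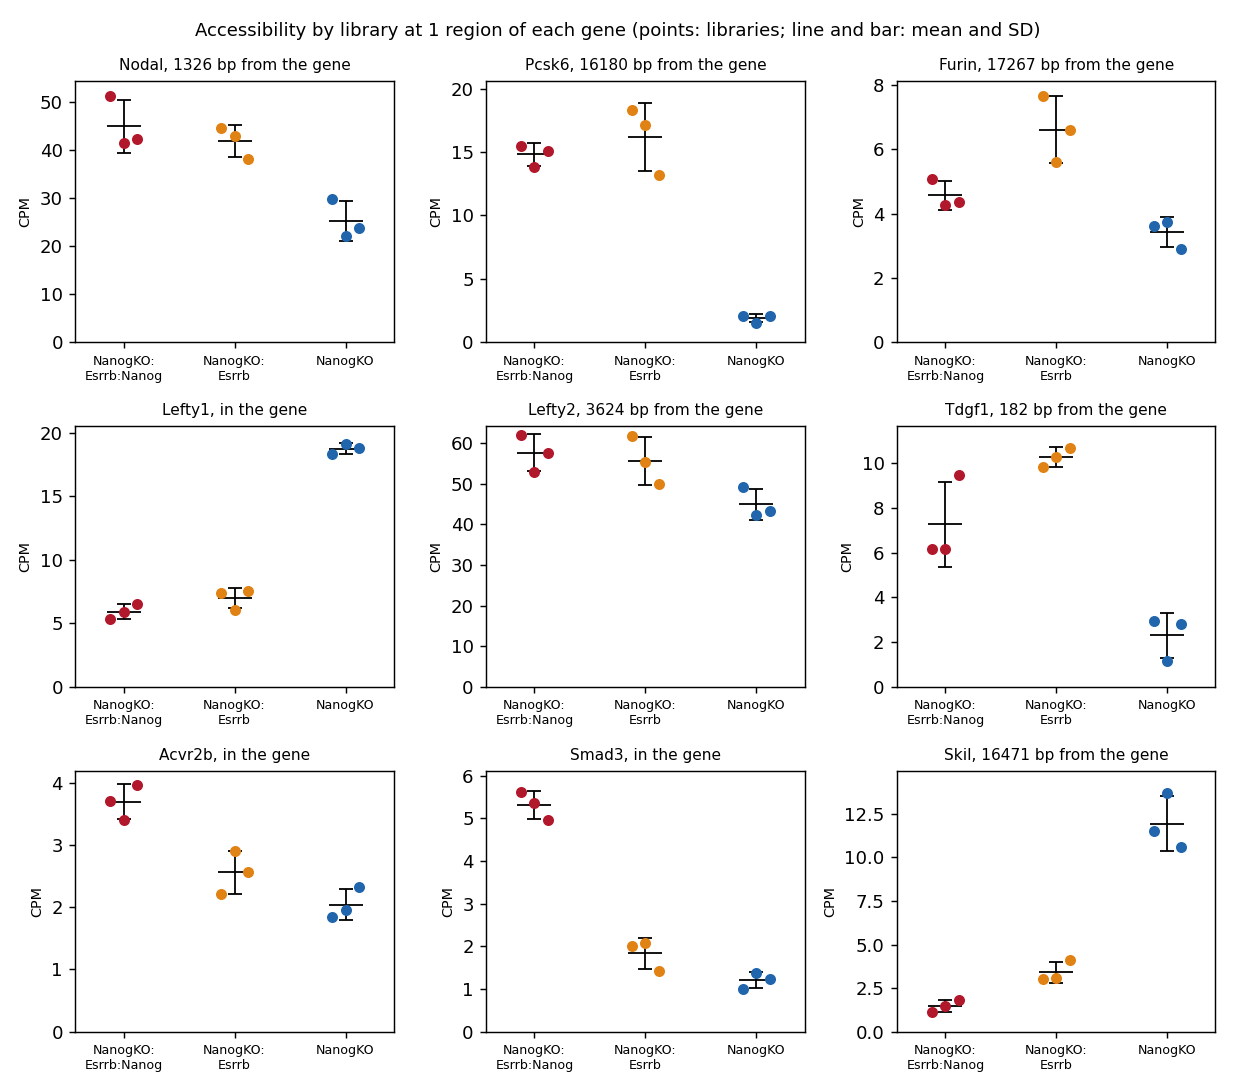
CPM of 1 region of each gene in the 9 libraries (points), with the mean and SD of each group of 3. The region is the named one of lowest adjusted p in any comparison, so the separation shown is selected. The NanogKO libraries are the lowest at the Pcsk6, Tdgf1, Nodal, Furin, Lefty2 and Smad3 regions and the highest at the Lefty1 and Skil regions. At the Acvr2b region NanogKO overlaps NanogKO:Esrrb. NanogKO:Esrrb:Nanog stands highest at the Smad3 region, at 4.96 to 5.62 CPM.

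Summed over the regions of a gene, accessibility had different orders of groups. Tdgf1 summed to 86.1 ± 8.9 CPM in NanogKO:Esrrb:Nanog, 93.6 ± 7.1 CPM in NanogKO:Esrrb and 48.5 ± 4.0 CPM in NanogKO (SD, n = 3 each, as for the other sums), so that NanogKO was lowest and the other groups lay within their spread. Lefty1 had the opposite order, at 41.4 ± 2.2, 44.3 ± 4.0 and 78.3 ± 2.8 CPM in the same sequence of groups. Nodal summed to 107 ± 6.7, 98.3 ± 3.4 and 85.8 ± 6.8 CPM, and Lefty2 to 85.9 ± 4.2, 86.1 ± 6.4 and 71.9 ± 4.3 CPM, each with NanogKO lowest. Skil summed to 55.3 ± 9.3, 57.7 ± 4.3 and 72.4 ± 7.4 CPM, with the groups that carry added factors within their spread of each other. Acvr2b summed to 98.1 ± 7.8, 84.1 ± 1.4 and 87.2 ± 2.7 CPM and Smad3 to 101 ± 5.2, 87.1 ± 3.4 and 99.5 ± 2.6 CPM. At Acvr2b NanogKO overlapped both other groups, which did not overlap each other, and at Smad3 NanogKO:Esrrb alone was lower. These sums depend on which regions were counted and are given as a description.

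Among 13926 protein-coding genes with at least 3 tested regions, the genes whose summed accessibility followed each member most closely over the 9 libraries were found by the Euclidean distance between centred log2 sums. For Pcsk6 they were Jam2, at a distance of 0.27, and Myot and Rptn, both at 0.31, where the spread of Pcsk6 itself about its mean was 1.90. For Tdgf1, with a spread of 1.30, they were Fhl4 and Zfp141 at 0.20 and Dusp27 at 0.26. For Lefty1, with a spread of 1.26, they were Vwc2l at 0.27 and Prlr and Kcnq3 at 0.28. Skil (spread 0.68) was followed by Cartpt at 0.17 and by Pla2g15 and Snx9 at 0.22, and Nodal (spread 0.45) by Pml at 0.08, Lgals7 at 0.12 and Ajap1 at 0.13. The other members varied less, with spreads of 0.33 to 0.43. This is a likeness across groups and carries no test.

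The rest of the pathway was counted over a list of 25 further genes with 213 regions. With Esrrb and Nanog, 75 of these rose and 35 fell against NanogKO, 35.2% and 16.4% beside 24.9% and 24.4% of all regions. With Esrrb, 48 rose and 32 fell, 22.5% and 15.0% beside 20% and 17% of all regions. The median log2 fold changes were 0.17 and -0.01. Between NanogKO:Esrrb:Nanog and NanogKO:Esrrb, 27.2% rose and 6.10% fell, beside 12.6% and 12% of all regions, with a median of 0.17. These were 58 rises and 13 falls. This last pair was 35 and 18 with upper-quartile factors, 68 and 18 without NanogKO:Esrrb:Nanog replicate 3, 39 and 4 without its replicate 1, 41 and 7 without its replicate 2, and 41 and 5, 42 and 8, and 40 and 6 without NanogKO:Esrrb replicates 1, 2 and 3. The intracellular inhibitor gene Smad7 accounted for 26 regions, of which 23 rose and 1 fell in NanogKO:Esrrb:Nanog and 16 rose and 2 fell in NanogKO:Esrrb against NanogKO. Between these groups 17 rose and 0 fell at Smad7 (12 and 0 with upper-quartile factors, 13 to 17 rises with 1 library left out). Over the inhibitor genes Cer1, Smad7, Ski, Dact2 and Fst together, 71 regions, 40 rose (56.3%) and 9 fell (12.7%) in NanogKO:Esrrb:Nanog against NanogKO. In NanogKO:Esrrb against NanogKO 28 rose (39.4%) and 9 fell (12.7%). With 1 library left out, whichever it was, these 9 falls became 4 to 6, with 4 without NanogKO replicate 2. The 28 rises became 24 to 28.

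Of all regions tested, 24.9% rose and 24.4% fell in NanogKO:Esrrb:Nanog against NanogKO, and 20% rose and 17% fell in NanogKO:Esrrb against NanogKO. Between NanogKO:Esrrb:Nanog and NanogKO:Esrrb, 12.6% rose and 12% fell. The other convertase genes, Pcsk1, Pcsk2, Pcsk4, Pcsk5 and Pcsk7, had 33 regions. Against NanogKO, 4 of these rose (12.1%) and 9 fell (27.3%) in NanogKO:Esrrb:Nanog. In NanogKO:Esrrb, 3 rose (9.09%) and 11 fell (33.3%). With 1 library left out, the rises numbered 1 to 4 and 1 to 2. Cfc1, which encodes a co-receptor related to TDGF1, had 3 regions, and in each comparison with NanogKO all 3 fell. Inhbb, which encodes the activin beta-B subunit, had 11 regions, of which 8 rose in NanogKO:Esrrb:Nanog and 3 in NanogKO:Esrrb against NanogKO, and 6 between these groups, with 0 falls in any. All 25 regions of the ligand genes Gdf1, Gdf3, Inhba and Inhbb together had 9 rises and 3 falls in NanogKO:Esrrb:Nanog and 3 rises and 2 falls in NanogKO:Esrrb. The receptor genes Acvr1b, Acvr1c and Acvr2a had 21 regions. Of these, 8 rose (38.1%) and 2 fell (9.52%) in NanogKO:Esrrb:Nanog (5 and 2 without its replicate 1). In NanogKO:Esrrb 6 rose (28.6%) and 1 fell (4.76%). The SMAD genes and partners Smad2, Smad4, Foxh1 and Drap1 had 33 regions. Of these, 9 rose (27.3%) and 4 fell (12.1%) in NanogKO:Esrrb:Nanog (4 and 4 without its replicate 2). In NanogKO:Esrrb 6 rose (18.2%) and 3 fell (9.09%). Of 27 regions at the NODAL target genes Gsc, Eomes and Mixl1, 5 rose (18.5%) and 5 fell (18.5%) in NanogKO:Esrrb:Nanog against NanogKO. In NanogKO:Esrrb against NanogKO 2 rose (7.41%) and 3 fell (11.1%). In NanogKO:Esrrb:Nanog the falls numbered 3 without its replicate 2 and the rises 3 without NanogKO replicate 3. In NanogKO:Esrrb the rises numbered 1 without its replicate 2 or NanogKO replicate 1 or 2.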

How the data were processed

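ATAC-seq libraries of 9 sorted mouse embryonic stem cell samples were analysed from the authors' deposited table of raw counts (whole, not normalized reads in each region) and from their 3 peak lists. The score of a peak in these deposited lists, 13 or higher, is the authors' own value and was not compared between lists. Per the submitters' processing notes, coordinates are on mm10 and Bowtie2, cutadapt, MACS2 2.2.0, bedtools 2.26.0, deepTools 4.4.0, SAMtools 1.4.1 and bcl2fastq 2.19.1 were used. The tool that counted reads, any shift for the transposase and any removal of duplicates are not given in the sources used here. The peak list of NanogKO:Esrrb:Nanog carries peak names of a library that the titles place in NanogKO:Esrrb, and this was not resolved.

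Each region took its nearest protein-coding gene from RefSeq GRCm38.p6, the assembly of mm10, with bedtools 2.31.1. Counts of all 9 libraries entered 1 fit of group means in edgeR 4.0.16 (R 4.3.3) with TMM factors and filterByExpr. The quasi-likelihood F test had 6 residual degrees of freedom, and p-values were adjusted by Benjamini-Hochberg over 157439 regions. Standard errors were the log2 fold change divided by the root of F. The fits were tested on simulated data. The members, the gene lists, the tests and the alternatives were chosen with earlier results of these data known. For each gene the named regions were those over its promoter window, the one of highest mean CPM and the one of smallest p in each comparison. Regions chosen otherwise are marked. Some genes of the pathway list are not reported here. Deviations from group means were correlated between libraries of the same replicate number. They correlated at 0.117 to 0.152 between NanogKO:Esrrb and NanogKO and at 0.105 to 0.146 between NanogKO:Esrrb:Nanog and NanogKO:Esrrb. Between NanogKO:Esrrb:Nanog and NanogKO they correlated at 0.002 to 0.136. The main fit had no replicate term, so its p-values do not use this pairing. Only the replicate block took libraries of the same number together. No label names a culture or day that libraries share. The alternatives were other scalings, no filter, DESeq2 1.42.0, the replicate block, pairs of groups alone, each library left out, and narrower sets of regions.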

Additional observations from a re-analysis of the deposited data

How the results depend on the processing

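Of 81 values of named regions, 47 were called. Over 972 alternatives 888 kept their side of the threshold, 66 lost a call, 18 gained one and 0 turned a called value round. A value not called in either setting could change its sign and still count among the 888. With upper-quartile factors the median log2 fold change of all regions was -0.118 in NanogKO:Esrrb:Nanog against NanogKO and -0.122 against NanogKO:Esrrb. The share of rises among all calls was then 40.8% and 30.8%, against 50.5% and 51.1% with TMM, and the member regions higher than in NanogKO:Esrrb numbered 6, against 15. With the replicate block, 49 member regions rose and 22 fell in NanogKO:Esrrb:Nanog against NanogKO, 39 and 19 in NanogKO:Esrrb against NanogKO, and 18 and 14 between the groups with added factors. The block changed the call of the named regions given with it in the report. With DESeq2 the counts were 46 and 22, 39 and 13, and 16 and 11. With each library left out in turn, rises and falls ranged from 40 to 51 and 18 to 22, from 32 to 36 and 9 to 14, and from 7 to 16 and 4 to 12. Among regions in a member gene, falls numbered 8 in NanogKO:Esrrb:Nanog against NanogKO, rises 24 and falls 8 in NanogKO:Esrrb against NanogKO, and falls 2 in the third comparison, which had 7 falls within 10 kb and 8 rises of over 1.5-fold. Among the 49 regions with a peak in all 3 lists, an alternative added after seeing the data, 17 rose and 8 fell, 14 rose and 8 fell, and 10 rose and 4 fell. The rises were 34.7%, 28.6% and 20.4% of the 49, beside 24.0%, 16.1% and 14.9% of all regions with a peak in every list. The falls were 16.3%, 16.3% and 8.16%, beside 19.7%, 15.0% and 8.61%. These narrower sets hold fewer regions. The cause of the changes with scaling or a library left out was not tested. Regions of under 1 CPM rest on few counts and limit what can be seen.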
